A study of Mus musculus with 9 samples.

Results

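The genes of vascular endothelial growth factor (VEGF) signalling were followed across mouse adipose-derived stem cells (ASCs) from 3 fat depots. The set held 9 of the 54532 genes in the count table and was taken by gene name. It comprised the ligands Vegfa, Vegfb, Vegfc and Pgf, the receptors Flt1 (VEGFR1), Kdr (VEGFR2) and Flt4 (VEGFR3), and the co-receptors Nrp1 and Nrp2. All 9 were found in the table and all 9 had enough reads to be tested.

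The cells came from perivascular adipose tissue (PVASCs), abdominal adipose tissue (Ab-ASCs) and subcutaneous adipose tissue (Sub-ASCs) of C57BL/6 mice, and each group had 3 libraries of bulk mRNA sequencing. No treatment or genetic change is named for any group. All were grown in the same stem cell medium, which contained leukemia inhibitory factor and fibroblast growth factor, and were harvested at passages 3 to 6. The age and sex of the mice behind each library, and whether animals were pooled, are not given in the sources used here. Nothing says that the libraries came from separate animals or cultures, so the p-values measure only the spread between these samples, which may be technical.

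VEGF ligands are secreted dimers that bind receptor tyrosine kinases, which are found mainly on endothelial cells. VEGF-A acts on blood vessels through VEGFR2, while VEGFR1 binds VEGF-A, VEGF-B and placental growth factor tightly and can act as a trap for them. VEGF-C and VEGF-D act through VEGFR3, which is best known from lymphatic vessels, and the neuropilins bind both VEGFs and class 3 semaphorins and strengthen signalling by the receptors. In adipose tissue, stromal cells and adipocytes are known sources of VEGF-A.

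In brief, PVASCs had lower levels of Vegfa, Vegfc, Pgf and Nrp2 than both other groups and higher levels of Flt1, Kdr, Flt4 and Nrp1. Vegfb was the exception, being low in both PVASCs and Ab-ASCs and high in Sub-ASCs. In PVASCs against Sub-ASCs, 4 members were higher and 5 lower, and in PVASCs against Ab-ASCs, 5 were higher and 4 lower. In Ab-ASCs against Sub-ASCs, 4 were higher, 3 lower and 2 did not pass the test. A gene passed with an adjusted p under 0.05 by edgeR's quasi-likelihood test on all genes. These counts have to be read against the whole table, where 70.4% of the 16526 tested genes passed in PVASCs against Sub-ASCs, 56.9% in PVASCs against Ab-ASCs and 75.3% in Ab-ASCs against Sub-ASCs. Taken by direction, 34.7% of tested genes were higher and 35.7% lower in the first comparison, 24.7% and 32.1% in the second, and 37.0% and 38.3% in the third. Any difference among the groups was called for 9 of the 9 members, beside 84.6% of all tested genes. The median absolute log2 fold change of the members was 1.12 in PVASCs against Sub-ASCs, beside 0.59 over all tested genes. It was 0.94 beside 0.38 in PVASCs against Ab-ASCs, and 0.30 beside 0.75 in Ab-ASCs against Sub-ASCs. A log2 fold change of 1 or more in either direction was reached by 5, 4 and 3 members in these comparisons, against 32.2%, 15.4% and 37.8% of all tested genes.

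Library totals lay between 20524173 and 29881036 counts, and the lowest count of any member in any library was 129 reads for Pgf. Ab-ASC replicate 1 stood apart from its group, with a chi-square per degree of freedom of 29.3 and 18.5 against the other Ab-ASC libraries, which differed from each other by 4.26. Without it, the numbers of members called in each direction were 4 and 5, 5 and 4, and 4 and 3, as with it. The surface genes Ly6a (Sca1), Thy1 (CD90) and Eng (CD105) were present in all 3 groups, but Ly6a had 2049 CPM in Sub-ASCs, 111 in PVASCs and 21.8 in Ab-ASCs. CPM here give a gene's read count relative to the TMM-scaled size of its library, and serve to compare a gene between groups. FPKM, which also divides by the gene length but rests on unscaled library totals, is used to compare genes within a group and for the sums, shares and ratios of the members by role. Sums of marker genes, and receptors beside them, are in CPM, in which long genes weigh more.

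**Figure D1:**
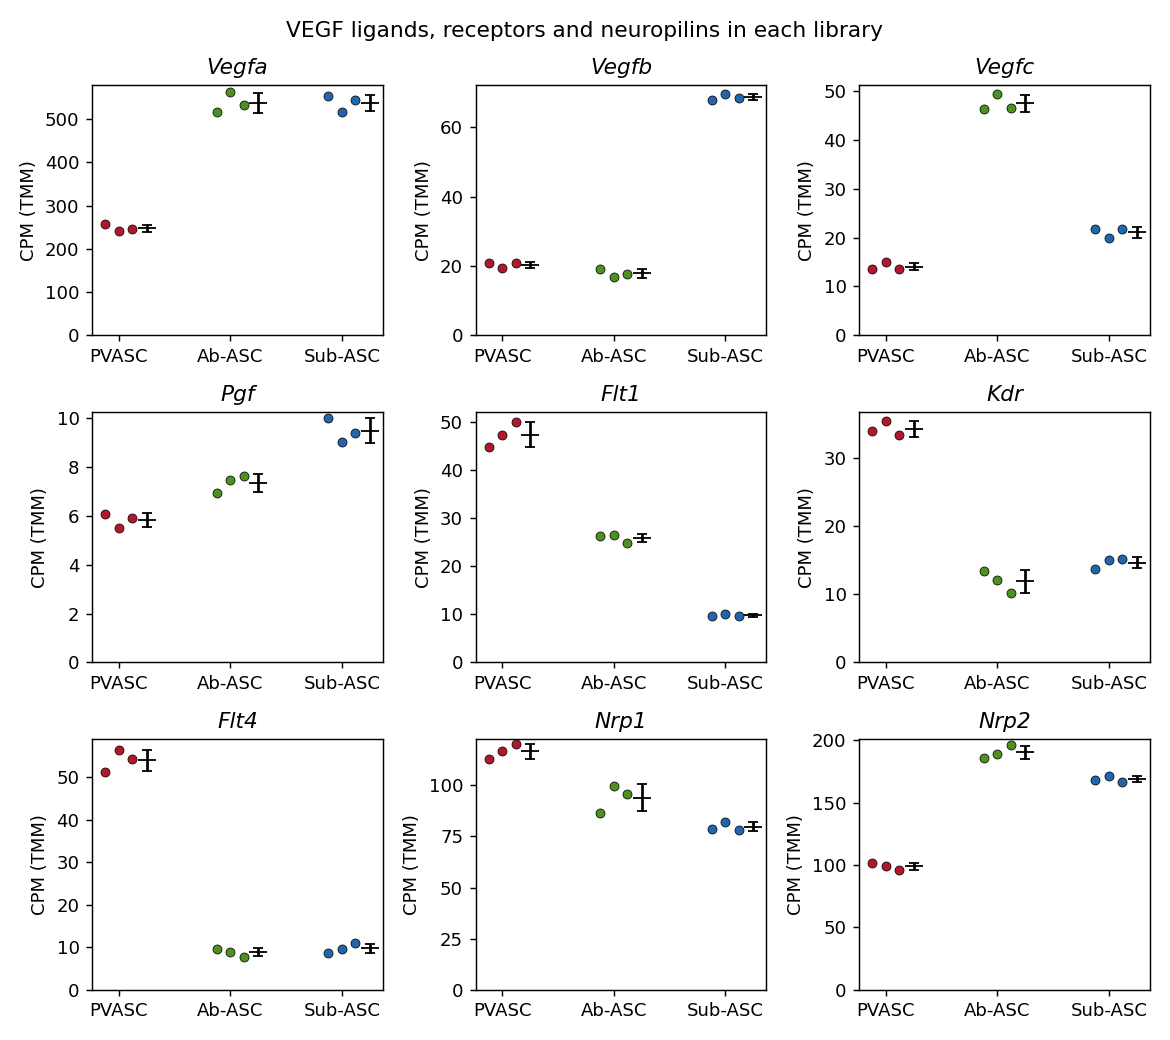
Levels of the 9 members in the 9 libraries, in CPM on linear axes that start at 0, with one panel per gene. Points are the 3 libraries of each group, and bars give the mean and SD. The receptors Flt1, Kdr and Flt4 lie highest in PVASCs, while Vegfa in PVASCs lies between 242 and 257 CPM, under every library of the other groups.

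Vegfa (ENSMUSG00000023951), the main angiogenic ligand, lies at chr17:46016993-46032369 on the minus strand (GRCm38). Its level was 257, 242 and 245 CPM in the 3 PVASC libraries, 517, 563 and 532 in Ab-ASCs and 553, 517 and 544 in Sub-ASCs. The PVASC libraries lay well under all others, whereas Ab-ASCs and Sub-ASCs overlapped. The level in PVASCs was 2.17-fold lower than in Sub-ASCs (log2 fold change -1.12, SE 0.05, adjusted p = 9.51e-10) and 2.17-fold lower than in Ab-ASCs (log2 fold change -1.12, SE 0.05, adjusted p = 4.84e-09). Between Ab-ASCs and Sub-ASCs the log2 fold change was -0.0020 (SE 0.05, adjusted p = 0.975), and 0.254% of all tested genes had a smaller absolute change in that comparison. The sign of this last value differed between alternatives.

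Vegfb (ENSMUSG00000024962), a ligand of VEGFR1, lies at chr19:6982473-6987651 on the minus strand. It was measured at 20.8, 19.4 and 20.9 CPM in PVASCs, 19.1, 16.7 and 17.7 in Ab-ASCs and 68.0, 69.5 and 68.3 in Sub-ASCs. Sub-ASCs stood far above the other groups, which lay close to each other without overlapping. The level in Sub-ASCs exceeded that in PVASCs 3.37-fold (log2 fold change of PVASCs against Sub-ASCs -1.75, SE 0.07, adjusted p = 1.09e-10) and that in Ab-ASCs 3.85-fold (log2 fold change of Ab-ASCs against Sub-ASCs -1.94, SE 0.07, adjusted p = 5.73e-11). The small excess of PVASCs over Ab-ASCs (log2 fold change 0.19, SE 0.07, adjusted p = 0.0312) did not survive several alternatives. Its adjusted p was 0.111 without the filter on low counts. Leaving out 1 library gave 0.125 without Ab-ASC replicate 2, 0.0858 without Ab-ASC replicate 3, 0.104 without PVASC replicate 1 and 0.105 without PVASC replicate 3.

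Vegfc (ENSMUSG00000031520), the ligand of VEGFR3 that drives lymphatic growth, lies at chr8:54077606-54187096 on the plus strand. It reached 13.6, 14.9 and 13.6 CPM in PVASCs, 46.4, 49.4 and 46.5 in Ab-ASCs and 21.8, 19.8 and 21.7 in Sub-ASCs. The 3 groups formed separate levels, with Ab-ASCs at the top and PVASCs at the bottom. PVASCs were 3.38-fold lower than Ab-ASCs (log2 fold change -1.76, SE 0.07, adjusted p = 1.21e-09) and 1.502-fold lower than Sub-ASCs (log2 fold change -0.59, SE 0.07, adjusted p = 1.05e-05). Ab-ASCs exceeded Sub-ASCs 2.25-fold (log2 fold change 1.17, SE 0.07, adjusted p = 8.96e-09). The PVASC to Ab-ASC difference was larger than that of 92.7% of all tested genes.

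Pgf (ENSMUSG00000004791) encodes placental growth factor, which binds VEGFR1, and lies at chr12:85166635-85177790 on the minus strand. It was the ligand with the fewest reads, at 6.05, 5.49 and 5.88 CPM in PVASCs, 6.93, 7.47 and 7.63 in Ab-ASCs and 10.003, 9.0006 and 9.38 in Sub-ASCs. No libraries of different groups overlapped, and the steps were small. PVASCs were 1.63-fold lower than Sub-ASCs (log2 fold change -0.70, SE 0.09, adjusted p = 2.40e-05), and Ab-ASCs were lower than Sub-ASCs by a log2 fold change of -0.36 (SE 0.10, adjusted p = 0.00407). The difference between PVASCs and Ab-ASCs (log2 fold change -0.34, SE 0.10, adjusted p = 0.0108) was lost in a fit of only these groups (adjusted p = 0.0528) and with unscaled library totals (log2 fold change -0.11, adjusted p = 0.352).

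The receptor Flt1 (ENSMUSG00000029648) lies at chr5:147561604-147726011 on the minus strand, and Kdr (ENSMUSG00000062960) on the same chromosome and strand at chr5:75932827-75978458. Flt4 (ENSMUSG00000020357) lies at chr11:49609263-49652739 on the plus strand. Since Flt1 and Kdr both bind VEGF-A and were both highest in PVASCs, the bases just upstream of their start sites are shown. They come from RefSeq on GRCm38.p6 and are written 5′ to 3′ on the gene's strand, without the 3 bases next to the Kdr start that GENCODE counts as exon. Capitals mark the GC box GGGCGG or its reverse complement CCGCCC, and in Flt1 also the cyclic AMP response element TGACGTCA.
Flt1 upstream, chr5:147726012-147726261: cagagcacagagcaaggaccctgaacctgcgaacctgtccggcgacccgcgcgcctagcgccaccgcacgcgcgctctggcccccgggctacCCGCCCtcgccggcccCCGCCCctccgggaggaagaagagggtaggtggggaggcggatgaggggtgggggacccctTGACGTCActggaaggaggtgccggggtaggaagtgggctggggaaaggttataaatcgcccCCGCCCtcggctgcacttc
Kdr upstream, chr5:75978459-75978705: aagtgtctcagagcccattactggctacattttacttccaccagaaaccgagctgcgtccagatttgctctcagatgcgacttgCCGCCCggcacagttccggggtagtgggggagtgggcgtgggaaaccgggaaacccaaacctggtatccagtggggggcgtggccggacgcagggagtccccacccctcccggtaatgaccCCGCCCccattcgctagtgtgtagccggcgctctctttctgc

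The Flt1 window held 3 GC boxes and the Kdr window 2, and GC boxes were found in the windows of all 9 members, beside 32.7% of 32851 promoter windows of the same 250-base length in the RefSeq table. The element TGACGTCA was present in Flt1 and in no other member, beside 1.55% of all windows. The ETS core GGAA, a short motif that occurs in 93.4% of windows, was found 4 times in Flt1 and 4 times in Kdr, and the median over all windows was 3. Both strands were searched for each motif. The hypoxia response core ACGTG, present in 16.6% of windows, was not in these letters for any member, Vegfa included. Only these 250 bases were searched, so sites further upstream are not covered. The RefSeq start used for a window is not always that of the listed gene. The windows of Flt4, Nrp1 and Pgf lay wholly inside the listed gene, and those of Nrp2 and Kdr reached 32 and 3 bases into it. A match is a description of the sequence only and does not show that a factor binds.

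Flt1, a high-affinity VEGF-A receptor with weak kinase activity, was measured at 44.8, 47.3 and 50.04 CPM in PVASCs, 26.2, 26.6 and 24.9 in Ab-ASCs and 9.66, 10.2 and 9.57 in Sub-ASCs. Its levels formed 3 steps without overlap, with PVASCs at the top and Sub-ASCs at the bottom. PVASCs exceeded Sub-ASCs 4.83-fold (log2 fold change 2.27, SE 0.07, adjusted p = 2.11e-11) and Ab-ASCs 1.83-fold (log2 fold change 0.87, SE 0.07, adjusted p = 3.72e-07). Ab-ASCs in turn exceeded Sub-ASCs 2.64-fold (log2 fold change 1.40, SE 0.07, adjusted p = 2.76e-09). Gene counts do not separate the soluble and membrane forms of this receptor.

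Kdr, the main signalling receptor for VEGF-A, had 33.9, 35.4 and 33.3 CPM in PVASCs, 13.5, 12.1 and 10.2 in Ab-ASCs and 13.7, 15.0 and 15.1 in Sub-ASCs. PVASCs were the highest, and the other groups lay next to each other without overlapping. The level was 2.34-fold higher than in Sub-ASCs (log2 fold change 1.23, SE 0.09, adjusted p = 9.55e-08) and 2.88-fold higher than in Ab-ASCs (log2 fold change 1.53, SE 0.09, adjusted p = 6.46e-08). Ab-ASCs were slightly lower than Sub-ASCs (log2 fold change -0.30, SE 0.10, adjusted p = 0.0164). That call was lost without Sub-ASC replicate 2 (adjusted p = 0.0523), Sub-ASC replicate 3 (adjusted p = 0.0531) or Ab-ASC replicate 3 (adjusted p = 0.0913).

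Flt4, the receptor for VEGF-C and VEGF-D, showed the widest contrast of the 9 members between PVASCs and the other groups. Its libraries held 51.3, 56.4 and 54.2 CPM in PVASCs, 9.61, 8.98 and 7.76 in Ab-ASCs and 8.67, 9.55 and 10.9 in Sub-ASCs. The PVASC libraries were separate from all others, and the Ab-ASC and Sub-ASC libraries overlapped. PVASCs exceeded Sub-ASCs 5.55-fold (log2 fold change 2.47, SE 0.10, adjusted p = 1.53e-10) and Ab-ASCs 6.16-fold (log2 fold change 2.62, SE 0.10, adjusted p = 7.44e-10). The difference from Ab-ASCs was larger than that of 96.3% of tested genes. Ab-ASCs and Sub-ASCs differed by a log2 fold change of -0.15 (SE 0.11, adjusted p = 0.217).

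**Figure D2:**
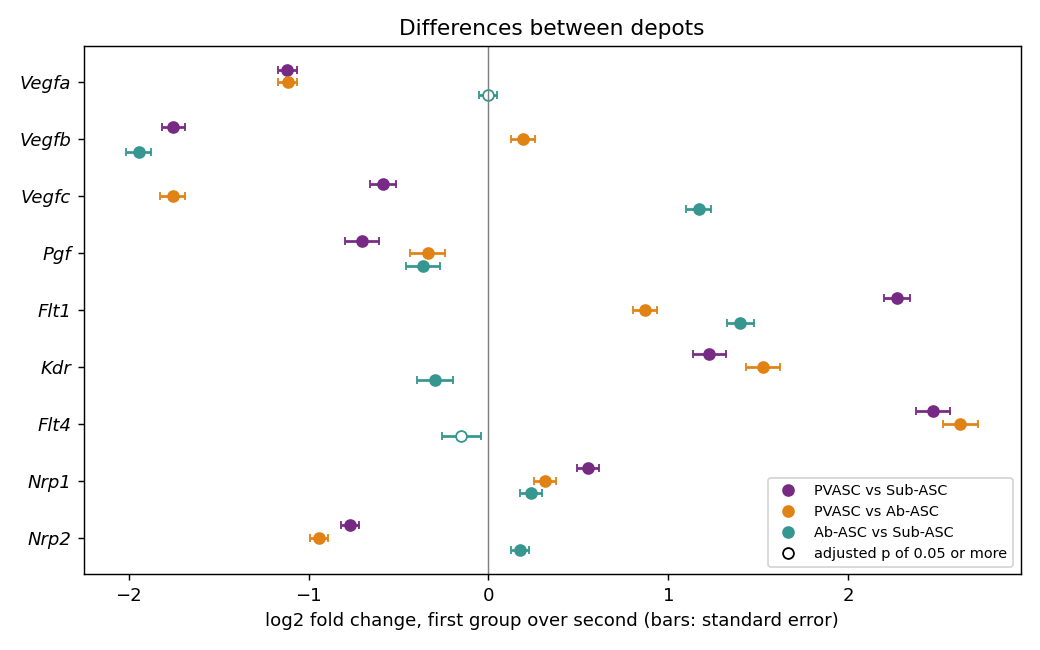
Fitted log2 fold changes of the 9 members in the 3 pairs of groups, with bars of 1 SE, and open points where the adjusted p was 0.05 or more. Flt4 and Flt1 lie furthest to the right in PVASCs against Sub-ASCs, at 2.47 and 2.27, and Vegfb furthest to the left at -1.75.

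Receptors are chiefly endothelial genes, so markers of blood endothelial cells other than the receptors were read beside them. In bulk RNA, fewer cells of a type and less RNA per cell cannot be told apart. Summed over 12 endothelial markers, the level was 917.5 to 923.4 CPM in PVASCs against 71.5 to 76.2 in Ab-ASCs and 221 to 234 in Sub-ASCs, and no marker was at 0 in all libraries. In PVASCs against Sub-ASCs, 9 of the 12 markers were higher, 2 lower and 1 did not pass, and in PVASCs against Ab-ASCs, 10 were higher, 0 lower and 2 did not pass. Pecam1 (CD31) had a mean of 180 CPM in PVASCs compared with 12.5 in Ab-ASCs and 45.3 in Sub-ASCs, and Cdh5 (VE-cadherin) had 209, 17.2 and 46.5. Pecam1 RNA was thus present in the PVASC libraries, and CD31 protein served in the study as a negative marker of PVASCs in flow cytometry. Emcn (endomucin) had 279.5, 10.6 and 20.2 CPM, and Erg, an endothelial transcription factor, had 38.4, 2.46 and 11.3.

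The summed endothelial markers and each of the 3 receptors were highest in PVASCs. Summed receptor CPM of PVASCs were 3.98 times those of Sub-ASCs, beside 4.06-fold for the markers, and 2.91 times those of Ab-ASCs, beside 12.5-fold for the markers. Single markers in PVASCs ranged from 0.0883 times (Cldn5) to 13.8 times (Emcn) their level in Sub-ASCs, so the fold of the sum depends on the genes in it. In Ab-ASCs against Sub-ASCs, 11 of the 12 markers were lower and 0 higher. Among the receptors, Kdr was lower as well in that comparison (log2 fold change -0.30), Flt4 did not pass (-0.15), and Flt1 alone was higher (1.40). The 2 markers lower in PVASCs than in Sub-ASCs were Tek, with 14.8 and 46.0 CPM, and Cldn5, with 0.797 and 9.01. As a percentage of the summed endothelial CPM, Flt1 was 5.15% ± 0.301 (SD, n = 3) in PVASCs beside 35.2% ± 2.15 in Ab-ASCs and 4.32% ± 0.0649 in Sub-ASCs. Kdr was 3.72% ± 0.115, 16.2% ± 2.77 and 6.43% ± 0.272 in the same order, and Flt4 was 5.86% ± 0.284, 12.0% ± 1.65 and 4.28% ± 0.492. Per endothelial marker CPM, Flt1 and Flt4 of PVASCs thus lay a little above those of Sub-ASCs and Kdr under it, and all receptors were highest in Ab-ASCs. The part of endothelial cells in the receptor differences was not tested.

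**Figure D3:**
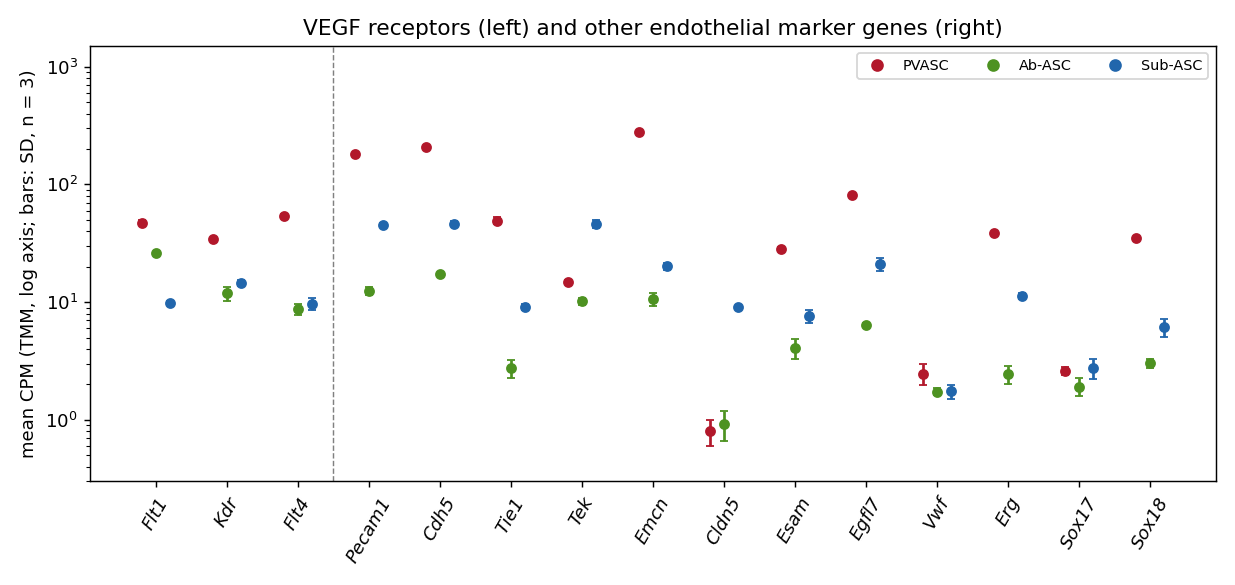
Mean CPM on a log axis, with bars of 1 SD (n = 3), of the 3 VEGF receptors (left) and the 12 other endothelial marker genes (right), coloured by group. The markers Pecam1, Cdh5 and Emcn are at 180, 209 and 279.5 CPM in PVASCs and at most 46.5 CPM on average in the other groups, and the receptors lie highest in PVASCs as well.

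Of 4 markers of lymphatic endothelium, the cell type best known for Flt4, 1 was higher, 2 lower and 1 not called in PVASCs against Sub-ASCs, and 2 were higher, 1 lower and 1 not called in PVASCs against Ab-ASCs. Prox1, the transcription factor of lymphatic identity, had 5.33 CPM in PVASCs against 1.22 in Ab-ASCs and 3.91 in Sub-ASCs. Lyve1 had 6.37, 0.883 and 4.004, and Mmrn1 had 0.160, 0.312 and 1.63. Pdpn, which stromal cells also express, had 229, 620 and 416 CPM. Prox1 in PVASCs and Sub-ASCs differed by a log2 fold change of 0.45 (adjusted p = 0.0516), next to 2.47 for Flt4. The count of 1 turned on the processing, since 2 of the 4 markers were higher than in Sub-ASCs with RLE size factors, with library totals, without the filter on low counts, in a fit of only these groups, and without Sub-ASC replicate 2 or any 1 of the Ab-ASC libraries. Against Ab-ASCs, Prox1 was 4.29-fold and Lyve1 7.09-fold higher in PVASCs, next to 6.16-fold for Flt4. The part of lymphatic cells in the Flt4 difference was not tested.

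Markers of other cell types differed between the groups as well. Smooth muscle markers summed to 2758 to 2900 CPM in PVASCs compared with 4566 to 5641 in Ab-ASCs and 91.0 to 96.1 in Sub-ASCs, and in PVASCs all 6 tested exceeded Sub-ASCs and were below Ab-ASCs. Proliferation markers summed to 746 to 760, 749 to 830 and 119 to 125 CPM, with 8 of 8 in PVASCs above Sub-ASCs, and 2 higher and 5 lower than in Ab-ASCs (3 and 3 with library totals). Mesothelial markers summed to 49.8 to 51.6, 123 to 132 and 3.13 to 3.26 CPM, with 3 of 10 at 0 in every Sub-ASC library. Of the 9 tested, 8 in PVASCs exceeded Sub-ASCs, and 2 were higher and 7 lower than in Ab-ASCs. Most had few reads in some group, and requiring at least 10 reads in every library left 2 higher than in Sub-ASCs, and 1 higher and 1 lower than in Ab-ASCs.

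The pericyte and macrophage lists went both ways. Pericyte markers summed to 266 to 276, 63.7 to 70.8 and 158 to 166 CPM, with 4 of 6 higher and 2 lower in PVASCs than in Sub-ASCs, and 4 higher and 0 lower than in Ab-ASCs. Cspg4, the NG2 proteoglycan, had 72.6, 31.9 and 1.47 CPM, whereas the channel genes Abcc9 and Kcnj8 were lower in PVASCs, at 0.502 beside 102.8 in Sub-ASCs for Abcc9 and 0.283 beside 4.41 for Kcnj8. Both had fewer than 10 reads in at least 1 library, and under a filter of 10 reads in every library the list had 3 higher and 0 lower than in Sub-ASCs. Macrophage markers summed to 316 to 325, 329 to 419 and 290 to 294 CPM, most of it from Lyz2 with 249.1, 271 and 162.5. Of the 8, 2 were higher and 6 lower in PVASCs than in Sub-ASCs, with a median log2 fold change of -1.01, and 1 was higher and 3 lower than in Ab-ASCs (3 and 2 with library totals, and 2 and 4 without Ab-ASC replicate 2). Lyz2 and Kcnj8 were singled out after their values were seen. The part of these cell types in the levels of the ligands and receptors was not tested.

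The neuropilins are co-receptors that lack a kinase domain. Nrp1 (ENSMUSG00000025810), which joins VEGF-A with VEGFR2 and also binds semaphorin 3A, lies at chr8:128358604-128503363 on the plus strand. It had 113, 117 and 120 CPM in PVASCs, 86.6, 99.7 and 95.7 in Ab-ASCs and 78.5, 82.2 and 78.4 in Sub-ASCs. PVASCs were highest, and no libraries overlapped between groups. The excess over Sub-ASCs was 1.47-fold (log2 fold change 0.55, SE 0.06, adjusted p = 4.42e-06) and over Ab-ASCs 1.24-fold (log2 fold change 0.31, SE 0.06, adjusted p = 0.000966). Ab-ASCs exceeded Sub-ASCs by a log2 fold change of 0.24 (SE 0.06, adjusted p = 0.00364).

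Nrp2 (ENSMUSG00000025969), which pairs with VEGFR3 and binds VEGF-C and semaphorin 3F, lies at chr1:62703285-62818695 on the plus strand and moved the other way. Its level was 102, 99.2 and 95.8 CPM in PVASCs, 186, 189 and 196 in Ab-ASCs and 168, 171 and 166 in Sub-ASCs. The PVASC libraries lay under all others, and the Ab-ASC libraries lay a little above those of Sub-ASCs. The difference was 1.92-fold against Ab-ASCs (log2 fold change -0.94, SE 0.05, adjusted p = 1.33e-08) and 1.71-fold against Sub-ASCs (log2 fold change -0.77, SE 0.05, adjusted p = 2.13e-08). Ab-ASCs were slightly above Sub-ASCs (log2 fold change 0.17, SE 0.05, adjusted p = 0.00603), a call that was lost with unscaled library totals (adjusted p = 0.0650). A gene on the same strand overlaps Nrp2, with at most 25 reads in any library, and so does one on the opposite strand, with at most 2 reads.

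Levels of different genes are comparable only per length, as FPKM within a group. Vegfa was the highest member in every group, at 63.2 ± 2.21 FPKM (SD, n = 3) in PVASCs beside 117 ± 7.90 in Ab-ASCs and 123 ± 4.13 in Sub-ASCs. The order behind it was different in each group. In PVASCs it ran Vegfb (13.9 FPKM), Nrp1 (13.0), Nrp2 (9.12), Flt4 (7.16), Vegfc (6.27), Kdr (4.14), Flt1 (3.83) and Pgf (2.19). Vegfb and Nrp1 overlapped in this order, as did Kdr and Flt1. In Ab-ASCs it ran Vegfc (18.1 FPKM), Nrp2 (15.0), Vegfb (10.4), Nrp1 (8.98), Pgf (2.36), Flt1 (1.79), Kdr (1.23) and Flt4 (0.995), with the last pair overlapping. In Sub-ASCs it ran Vegfb (41.8 FPKM), Nrp2 (13.9), Vegfc (8.43), Nrp1 (7.97), Pgf (3.19), Kdr (1.58), Flt4 (1.15) and Flt1 (0.710), with Vegfc and Nrp1 overlapping. Flt4 stood above both other receptors in PVASCs alone of the 3 groups.

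**Figure D4:**
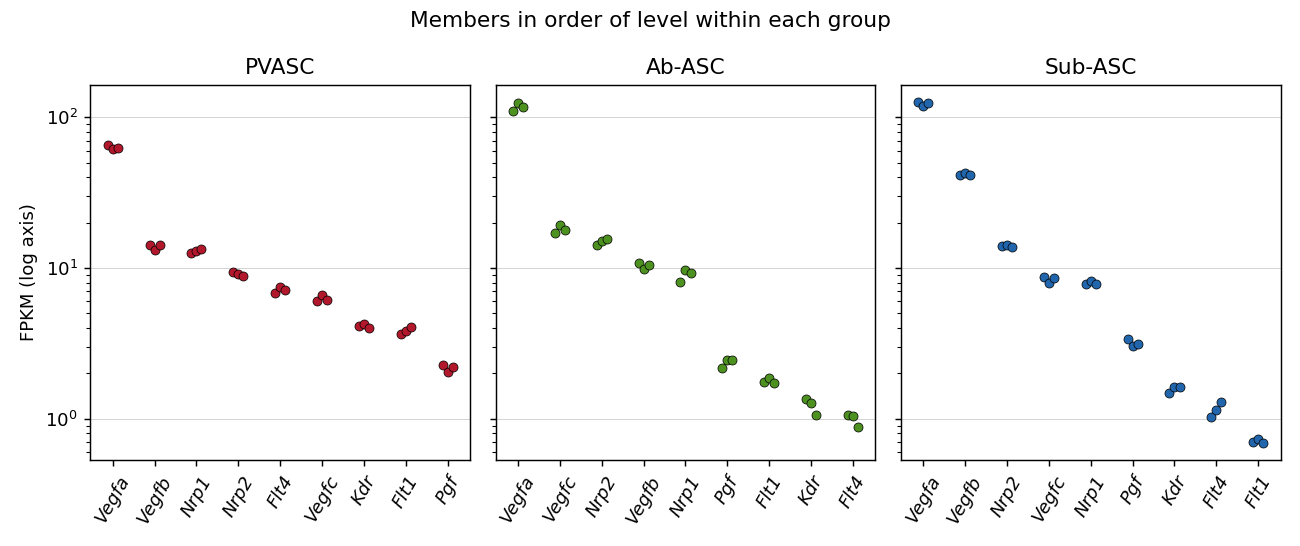
FPKM of the 9 members on a log scale within each group, sorted by the mean over 3 libraries, with points for single libraries. Vegfa leads in all groups, and Flt4 is the receptor highest in this order in PVASCs, at 7.16 FPKM, and the lowest of all members in Ab-ASCs, at 0.995.

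Grouped by role, PVASCs had the lowest summed ligand level and the highest summed receptor level of the 3 groups. The 4 ligands summed to 85.5 ± 2.54 FPKM in PVASCs against 148 ± 8.61 in Ab-ASCs and 176 ± 4.15 in Sub-ASCs (SD, n = 3). The 3 receptors summed to 15.1 ± 0.492, 4.02 ± 0.288 and 3.45 ± 0.210 FPKM, and the neuropilins to 22.2 ± 0.129, 24.0 ± 1.49 and 21.9 ± 0.452. Scaled by TMM, the neuropilins summed to 20.3 ± 0.127 in PVASCs beside 25.7 ± 0.983 in Ab-ASCs and 22.4 ± 0.416 in Sub-ASCs, so that PVASCs, which overlapped with Sub-ASCs on unscaled totals, lay below them, while the order of the groups in the ligand and receptor sums stayed. Per library, Vegfa stood at 4.18 ± 0.286 times the summed receptors in PVASCs compared with 29.3 ± 2.80 times in Ab-ASCs and 35.8 ± 3.07 times in Sub-ASCs. Vegfc stood at 0.875 ± 0.0256 times Flt4 in PVASCs beside 18.3 ± 1.97 times in Ab-ASCs and 7.37 ± 0.936 times in Sub-ASCs. Nrp1 exceeded Nrp2 in PVASCs, with a ratio of 1.43 ± 0.0878, and was under it in Ab-ASCs (0.598 ± 0.0373) and Sub-ASCs (0.572 ± 0.00887). These ratios of RNA levels were not tested, and the 3 groups did not overlap in the ligand sums.

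The composition of each class also differed. Vegfa made up 73.9% ± 0.477 of the ligand FPKM in PVASCs against 79.1% ± 0.734 in Ab-ASCs and 69.7% ± 0.709 in Sub-ASCs. Vegfb held 16.2%, 7.04% and 23.7%, and Vegfc 7.34%, 12.2% and 4.78%. Among the receptors, the leading gene was Flt4 in PVASCs with 47.3% ± 0.592, Flt1 in Ab-ASCs with 44.7% ± 2.49 and Kdr in Sub-ASCs with 45.9% ± 0.638. Each group thus had a different receptor in first place, and these shares were not tested.

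**Figure D5:**
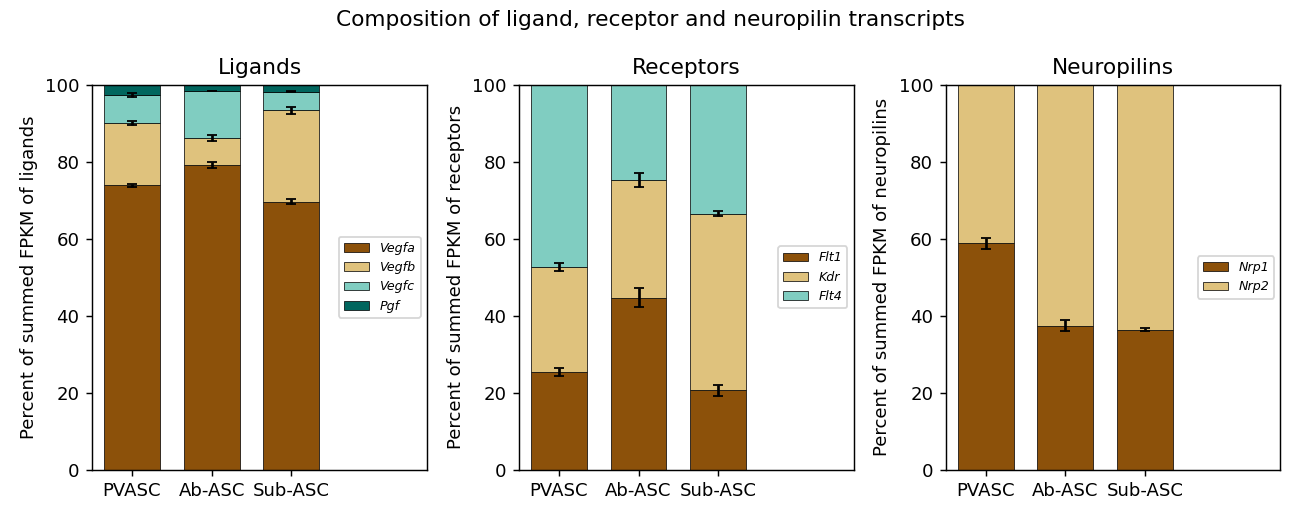
Share of each member in the summed FPKM of ligands, receptors and neuropilins, as stacked bars from 0 to 100% for the means of 3 libraries in each group, with bars of 1 SD at the block borders. The largest receptor block is Flt4 in PVASCs (47.3%), Flt1 in Ab-ASCs (44.7%) and Kdr in Sub-ASCs (45.9%).

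The fifth ligand of the family, Vegfd, is not among the 9 members and was at its highest in Sub-ASCs. It had 527, 543 and 523 CPM in Sub-ASCs, 20.5, 17.5 and 18.5 in Ab-ASCs and 31.9, 33.8 and 33.7 in PVASCs. The level in Sub-ASCs was 16.0-fold higher than in PVASCs (log2 fold change of PVASCs against Sub-ASCs -4.003, SE 0.06, adjusted p = 7.54e-14) and 28.3-fold higher than in Ab-ASCs (log2 fold change of Ab-ASCs against Sub-ASCs -4.82, SE 0.07, adjusted p = 3.16e-14). Per length it exceeded Vegfa in Sub-ASCs, with 216 FPKM against 123, and was at 15.0 FPKM in PVASCs and 7.28 in Ab-ASCs. The ligand sums, shares and ratios above leave it out, including the ratio of Vegfc to Flt4, although VEGF-D also acts through VEGFR3.

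The wider pathway was read from 6 lists with 83 genes, of which 82 were tested. In PVASCs against Sub-ASCs, 71 of them passed (86.6%, beside 70.4% of all tested genes), in PVASCs against Ab-ASCs 67 (81.7%, beside 56.9%) and in Ab-ASCs against Sub-ASCs 73 (89.0%, beside 75.3%). The lists were chosen with earlier results of these data known, so the higher shares do not single out the pathway. The first list held 11 genes, Vegfd itself and genes whose products process, bind or hold VEGF ligands. Of these, 3 were higher and 7 lower in PVASCs than in Sub-ASCs, and 2 were higher and 8 lower than in Ab-ASCs. In Ab-ASCs against Sub-ASCs, 3 were higher and 5 lower. Vegfd was among the lower genes against Sub-ASCs each time, and among the higher ones in PVASCs against Ab-ASCs. The median log2 fold changes in these comparisons were -0.73, -0.52 and -0.08, beside -0.01, -0.06 and -0.03 over all tested genes. Pcsk5, a proprotein convertase that cleaves VEGF-C and VEGF-D precursors, had 3.05 CPM in PVASCs compared with 30.7 in Ab-ASCs and 131 in Sub-ASCs. Ctgf, a matricellular protein that binds VEGF-A, had 1312, 2822 and 41.1.

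Among 13 neuropilin partners, the class 3 semaphorins, plexins and the adaptor Gipc1, 8 were higher and 4 lower in PVASCs than in Sub-ASCs, and 10 were higher and 3 lower than in Ab-ASCs. Ab-ASCs had 5 higher and 7 lower than Sub-ASCs. The median log2 fold changes were 0.69, 1.03 and -0.18. Sema3f, a ligand of Nrp2, had 25.4 CPM in PVASCs beside 5.35 in Ab-ASCs and 22.0 in Sub-ASCs, and Sema3d had 18.0, 8.73 and 1.81. Sema3b, another neuropilin ligand, was highest in Sub-ASCs, at 54.7 CPM beside 8.41 in PVASCs and 3.92 in Ab-ASCs.

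Vegfa is a known target of the hypoxia-inducible factors. Of 10 genes for these factors and their regulators, 2 were higher and 7 lower in PVASCs than in Sub-ASCs, and 1 was higher and 6 lower than in Ab-ASCs. With library totals these counts were 3 and 5 against Sub-ASCs and 2 and 3 against Ab-ASCs. Ab-ASCs had 4 higher and 3 lower than Sub-ASCs. Epas1, which encodes HIF-2α, had 27.5 CPM in PVASCs against 32.5 in Ab-ASCs and 714 in Sub-ASCs, and its relative Hif3a had 0.413, 1.96 and 0.788. Cited2, an inhibitor of HIF activity, had 130, 170 and 34.1 CPM. Of 14 other hypoxia-inducible genes, 2 were higher and 10 lower in PVASCs than in Sub-ASCs, with a median log2 fold change of -1.21, and 4 were higher and 9 lower in Ab-ASCs than in Sub-ASCs, with a median of -1.32. Requiring at least 10 reads in every library left 1 higher and 10 lower in PVASCs than in Sub-ASCs. In PVASCs against Ab-ASCs there were 5 higher, 7 lower and 2 not called, with a median of -0.21, and 6 higher and 5 lower with library totals. Adm (adrenomedullin) had 129 CPM in PVASCs compared with 41.5 in Ab-ASCs and 370 in Sub-ASCs. Ndrg1 had 23.3, 11.5 and 106, and Ankrd37 had 1.92, 1.02 and 5.34. The part of hypoxia in the level of Vegfa was not tested.

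Of 27 tested genes for signalling proteins downstream of the receptors, 11 were higher, 11 lower and 5 did not pass in PVASCs against Sub-ASCs, with a median log2 fold change of 0.03. There were 7 higher, 12 lower and 8 not called in PVASCs against Ab-ASCs (median -0.10), and 15 higher, 11 lower and 1 not called in Ab-ASCs against Sub-ASCs (median 0.27). These splits depended on the scaling, since library totals in place of TMM gave 13 higher and 7 lower against Sub-ASCs, and 14 higher and 8 lower against Ab-ASCs. Sh2d2a was the 1 gene of this list that was not tested. Nos3, the endothelial nitric oxide synthase, had 9.44 CPM in PVASCs beside 0.594 in Ab-ASCs and 5.51 in Sub-ASCs, and Hspb1, a heat shock protein phosphorylated in VEGF signalling, had 93.7, 169 and 50.5. The protein kinase C gene Prkcb had 10.6, 3.56 and 5.45 CPM. Of 7 genes that VEGF is known to induce in endothelial cells, 4 were higher and 2 lower in PVASCs than in Sub-ASCs, and 3 were higher and 3 lower than in Ab-ASCs. Ab-ASCs had 4 higher and 3 lower than Sub-ASCs. Esm1, a secreted proteoglycan of endothelial tip cells, had 258 CPM in PVASCs against 7.50 in Ab-ASCs and 3.64 in Sub-ASCs, or 70.9-fold more in PVASCs than in Sub-ASCs. Dll4, the Notch ligand of tip cells, was at 0.258, 0.119 and 4.82 CPM, highest in Sub-ASCs, and Egr3 at 25.7, 40.4 and 1.26. Dll4 had at most 9 reads in any PVASC library and at most 7 in any Ab-ASC library. Requiring at least 10 reads in every library left 4 genes of the list higher and 1 lower in PVASCs than in Sub-ASCs. The list therefore held genes that moved in opposite directions.

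Genes whose profile over the 9 libraries was most like that of each member were found by the root mean square difference of centred log2 CPM, as a description. Closest to Flt4 were Stab1, a scavenger receptor of sinusoidal and lymphatic endothelium (0.164, Pearson r 0.995), and Mcam, a gene of endothelial cells and pericytes (0.173, r 0.9898). Closest to Kdr were Hlx (0.143, r 0.977) and Cd93, an endothelial surface receptor (0.171, r 0.974). Flt1 was closest to Ptprk (0.0732, r 0.998) and Vegfa to Ugt1a7c (0.0669, r 0.994). Ccbe1, which helps to activate VEGF-C, came second for Vegfa (0.0859, r 0.9897), and Cd53 for Flt1 (0.0939, r 0.995). The nearest genes of the other members were Fam83h and Acsl1 for Vegfb, Heph and Adamts9 for Vegfc, Trim46 and Tsc22d4 for Pgf, Dlg1 and Hs2st1 for Nrp1, and Stambpl1 and Mob3c for Nrp2, each with a difference of at most 0.0947. With 3 groups, such profiles mostly rank the group means, and the 9 libraries share their groups.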

How the data were processed

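RNA of cultured C57BL/6 mouse ASCs was sequenced by the authors in 9 libraries, with 3 each for PVASCs, Ab-ASCs and Sub-ASCs, grouped by their labels. The authors deposited raw counts per gene, unfiltered. The submitters' processing notes name CASAVA 1.8, Bowtie 0.12.2 and featureCounts 1.5.0-p3, and the builds mm8 and mm10. Of the 54532 genes, 53462 (98.0%) had the same position in GENCODE M21 on GRCm38. Whether the counting used strand is not given in the sources used here, so overlapping genes and isoforms are not separated.

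From these counts, CPM with TMM scaling and FPKM from count, listed length and library total were computed here. All 9 libraries entered 1 fit in edgeR 4.0.16 (R 4.3.3, limma 3.58.1) after filterByExpr, without covariates. Groups were compared with the quasi-likelihood F-test, adjusted by Benjamini-Hochberg over the 16526 genes tested, with a threshold of 0.05, and the SE of a log2 fold change was taken from its F statistic. The procedure was tested on simulated data in which few genes changed, in PVASCs only, with the same spread for every gene. The real data, with many changed genes and unequal spread between groups, differ from that setting. The members and gene lists were chosen with earlier results of these data known. All 9 members are named. From each pathway list the 3 genes with the largest change in any pair of groups are named, marker lists are given as sums with single genes that a result turns on, and the 2 most similar genes are given for each member. Ccbe1 is named for its likeness. Alternatives were DESeq2 1.42.0, RLE size factors, other filters, separate fits of each pair of groups, a replicate block, a log2 cutoff, library totals (added after seeing the data) and leaving out each library. Promoter windows came from RefSeq on GRCm38.p6. The Flt4 window lay within a GENCODE exon and is not shown.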

Additional observations from a re-analysis of the deposited data

How the results depend on the processing

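Over 190 results and 19 settings, 2334 alternative values were computed, of which 24 lost a call, 0 gained one, 8 changed sign and 120 moved, and the others stayed close to the reported value. For the 459 fold changes this means the same direction and side of the threshold, for the 1647 counts of genes a value within 1.5 times the reported count, for the 225 levels and shares a move of less than 1 SD between replicates, and for the order of the members in each of the 3 groups the same order. Of the fold changes of members, 427 kept direction and call. Requiring a log2 fold change of 1 or more in either direction left 5 members called in the first comparison (PVASCs against Sub-ASCs), 4 in the second (PVASCs against Ab-ASCs) and 3 in the third (Ab-ASCs against Sub-ASCs). Of these, 2 were lower in the first comparison, 2 higher and 2 lower in the second, and 2 higher and 1 lower in the third, and 31, 18 and 35 genes of the pathway lists passed. Members called without this cutoff but below that size were Vegfc (-0.59), Pgf (-0.70), Nrp1 (0.55) and Nrp2 (-0.77) in the first comparison, Vegfb (0.19), Pgf (-0.34), Flt1 (0.87), Nrp1 (0.31) and Nrp2 (-0.94) in the second, and Pgf (-0.36), Kdr (-0.30), Nrp1 (0.24) and Nrp2 (0.17) in the third.

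For Vegfb in PVASCs against Ab-ASCs, the log2 fold change was 0.19 without the low-count filter (adjusted p = 0.111 in edgeR), and leaving out 1 library gave 0.14 to 0.24. For Pgf in the same comparison it was -0.26 in a fit of only the groups compared (adjusted p = 0.0528 in edgeR) and -0.11 with library totals (adjusted p = 0.352 in edgeR). For Kdr in Ab-ASCs against Sub-ASCs, leaving out 1 library gave -0.39 to -0.19, and for Nrp2 library totals gave 0.11 (adjusted p = 0.0650 in edgeR). For Vegfa in that comparison, the uncalled value near 0 was 0.0090 without the low-count filter and -0.030 to 0.030 with 1 library left out. With library totals, the median log2 fold change over all tested genes was 0.15, 0.17 and -0.09, beside -0.01, -0.06 and -0.03 with TMM. The causes of these lost calls and shifts were not tested. As a share of summed CPM in place of FPKM, Vegfa was 86.0% of the ligands in PVASCs beside 88.1% in Ab-ASCs and 84.4% in Sub-ASCs, since CPM does not divide by length. With TMM-scaled library sizes, 16 of the 27 member levels in FPKM moved by more than 1 SD, and the order of members within each group was the same. The summed FPKM, an alternative chosen after seeing the data, then came to 78.3, 158 and 180 for the ligands in PVASCs, Ab-ASCs and Sub-ASCs, 13.9, 4.30 and 3.52 for the receptors and 20.3, 25.7 and 22.4 for the neuropilins. With a replicate block, 9, 9 and 7 members were called, as without it. Libraries of the same number did not deviate together (correlation -0.0514 to 0.0950). This cannot show whether they came from the same mice, since technical replicates would not deviate together either.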
